A study of Drosophila melanogaster with 80 samples.

Results

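The cytochrome P450 genes of Drosophila melanogaster were followed through 80 Affymetrix expression arrays of whole adult flies. Members were taken by name, as every gene whose symbol on the array starts with Cyp and a digit, from probe sets that carry 1 symbol only, with the probe set of the highest mean over the 80 arrays used for a gene with several. The rule found 83 genes among 11982 genes measured. Of these, 81 are cytochromes P450, and the other 2, Cyp1 and Cyp40, are cyclophilins, a family of protein-folding isomerases that shares only the letters of the name. The 81 comprised 37 genes of the CYP3 clan, 32 of the CYP4 clan, 8 of the mitochondrial clan and 4 of the CYP2 clan. The rule goes by symbol and not by function, so many members act on foreign compounds or hormones rather than on lipids. Each of the 2 cyclophilins missed the threshold in every comparison made, and both are left out of the counts below.

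P450 enzymes are haem proteins that insert 1 oxygen atom from molecular oxygen into a substrate, with electrons supplied by a reductase or, in mitochondria, by a ferredoxin. In insects, CYP3 clan enzymes are known for oxidising plant toxins and insecticides in gut, fat body and Malpighian tubules. CYP4 clan enzymes are known for acting on fatty acids and other lipids, and those of the mitochondrial and CYP2 clans include the enzymes that make and break the moulting hormone ecdysone.

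The flies were of the Oregon R strain, a laboratory wild type, and all were unmated males or virgin females that were 3 to 4 days old when 14 days of feeding began. Females and males of the F0 generation ate a high-sucrose diet (HSD, 1 M sucrose) or a control diet (CD, 0.15 M sucrose). F1 and F2 flies of each sex ate HSD or CD and descended from F0 males kept on HSD (HSD ancestry) or on CD (CD ancestry). This gave 20 groups of 4 arrays: 4 in F0, 8 in F1 and 8 in F2. The design allows HSD to be compared with CD in F0, and HSD ancestry with CD ancestry in sons, daughters and the next generation. The diet of F1 flies used as parents is not given in the labels used here.

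Values are log2 signals per probe set, and a change is the value of HSD-fed flies minus that of CD-fed flies, or of HSD ancestry minus CD ancestry in flies of the same diet, generation and sex. A gene was called when limma gave it a Benjamini-Hochberg adjusted p under 0.05, adjusted over all genes tested in that comparison. Group values are means ± SD with n = 4 arrays, and SE is the standard error of a change. The arrays formed 10 sets of 8 that had been normalized apart, so F0 diet and ancestry were tested within sets, while values set across sexes, or across own diets in F1 and F2, are descriptions. Array medians ran from 5.16 to 7.34, and precision is set by having 4 arrays a group. In 55 to 64 of the 81 P450 genes, depending on the group, the mean lay above the median probe set of that group. Over all genes this share was 64.3% to 67.1%. The SD of a P450 gene within a group had a median of 0.087. In 6 arrays transcripts limited to the other sex stood more than 0.5 above the lowest array of their set: replicates 1 and 4 of CD-fed F1 males of HSD ancestry, replicate 1 of HSD-fed F1 females of HSD ancestry, and replicates 1, 2 and 4 of HSD-fed F2 males of HSD ancestry. All 6 carried HSD ancestry. Counts of calls in the F1 comparisons they enter, and the genes described by name, are also given without them. Counts in HSD-fed F2 males and for the difference between own diets in F2 males are not. Nor are counts pooled over comparisons, counts of markers, and counts set against the F0 changes. Arrays under that cutoff were kept, and some lay near it. Among CD ancestry, replicate 4 of HSD-fed F1 males stood 0.39 and replicate 1 of HSD-fed F1 females 0.38 above. Among HSD ancestry, replicate 3 of HSD-fed F2 males stood 0.38 and replicate 4 of HSD-fed F1 males 0.34 above. In whole flies, fewer cells of a type and less RNA per cell cannot be told apart.

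Most genes of the CYP3 clan were lower in HSD-fed F0 females. Of 78 P450 genes tested, 45 were called, 31 lower and 14 higher, against 41.4% of all genes tested (18.2% lower and 23.1% higher). The median P450 change was -0.11, beside 0.02 for all genes. In the CYP3 clan 20 of 37 genes fell and 4 rose, with a median of -0.42. In the CYP4 clan 5 of 30 fell and 8 rose, shares near those of all genes, with a median of 0.03. Of the 8 mitochondrial genes 4 fell and 1 rose, and of 3 CYP2 genes tested 2 fell and 1 rose.

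In F0 males, too, most genes of the CYP3 clan were lower on HSD. Of 77 P450 genes tested, 44 were called, 37 lower and 7 higher, against 30.7% of all genes tested (11.1% lower and 19.6% higher). The median P450 change was -0.17, beside 0.02 for all genes. In the CYP3 clan 24 of 37 genes fell and 1 rose, with a median of -0.36. In the CYP4 clan 7 of 29 fell and 5 rose, the rises a share near that of all genes, with a median of 0.00. Among these falls Cyp316a1 (-0.80) was bright enough to be tested only through CD-fed males, where it averaged 4.52. Of the 8 mitochondrial genes 5 fell and 1 rose. Of 75 P450 genes tested in both sexes, 25 fell in both, 7 rose in both and 2 fell in males and rose in females. The shares of all genes that did so were not counted, so it is not known whether P450 genes stand apart in this.

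**Figure D1:**
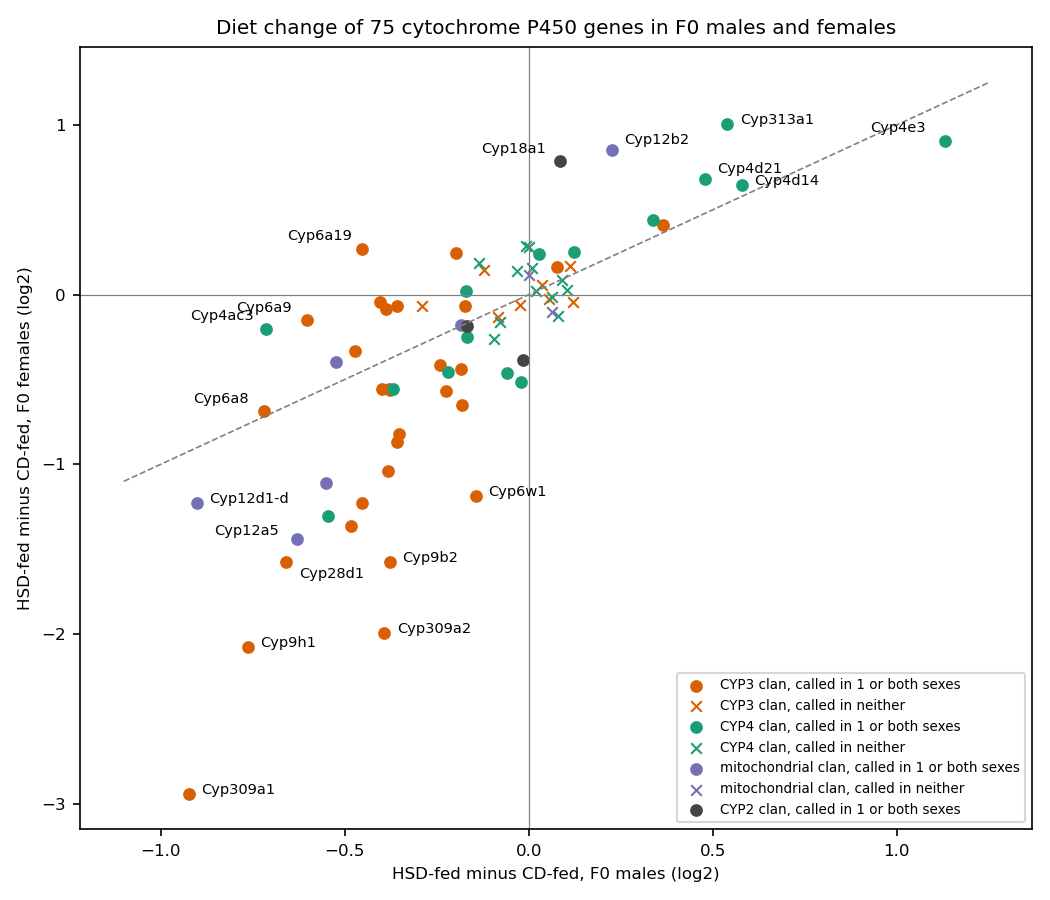
Change with HSD against CD (log2) of the 75 P450 genes tested in both F0 sexes, with males on the horizontal and females on the vertical axis. Colours mark the clan, circles genes called in 1 or both sexes, crosses genes called in neither, and the dashed line equal changes. The largest falls lie well below the line: Cyp309a1 fell by 2.94 in females and by 0.92 in males.

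The neighbouring genes Cyp309a1 and Cyp309a2, CYP3 clan members of no role stated here, were among the genes that fell furthest. In HSD-fed F0 females Cyp309a1 had log2 signals of 6.29, 6.30, 6.11 and 5.94, against 8.84, 9.29, 9.05 and 9.21 in CD-fed females. Every HSD-fed female array lay far below every CD-fed one. The change of Cyp309a1 was -2.94 (SE 0.11, adjusted p = 1.8e-07), which leaves 0.130 of the control signal. In HSD-fed F0 males it had 8.96, 8.93, 8.91 and 8.71, against 9.74, 9.87, 9.79 and 9.80 in CD-fed males, a change of -0.92 (SE 0.057, adjusted p = 4.0e-06) with no overlap. Cyp309a2 averaged 6.24 ± 0.15 in HSD-fed females and 8.24 ± 0.15 in CD-fed females, a change of -1.99 (SE 0.091, adjusted p = 5.7e-07). In males Cyp309a2 averaged 8.84 ± 0.093 on HSD and 9.24 ± 0.019 on CD, a change of -0.39 (adjusted p = 0.00034).

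Other genes of the CYP9 and CYP28 families fell with them. Cyp9h1 had 5.89, 5.78, 5.92 and 5.69 in HSD-fed F0 females, against 7.77, 7.95, 7.84 and 8.01 in CD-fed females, and its change was -2.07 (SE 0.070, adjusted p = 8.1e-08). Cyp28d1, a candidate gene for nicotine resistance in this species, had 9.74, 9.65, 9.69 and 9.60 in HSD-fed females, against 11.02, 11.34, 11.37 and 11.26 in CD-fed females. The groups of both genes lay far apart. Cyp28d1 fell by 1.57 (SE 0.076, adjusted p = 7.9e-07) in females and by 0.66 (SE 0.060, adjusted p = 5.3e-05) in males. Its neighbour Cyp28d2 changed by -0.041 in females and 0.12 in males and was called in neither. Cyp9b2 fell by 1.57 in females, to 9.78 ± 0.16 against 11.35 ± 0.12, and by 0.38 in males, to 11.20 ± 0.052 against 11.57 ± 0.030. Cyp28a5 fell by 1.36 in females and by 0.48 in males.

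Several genes known for handling insecticides or plant compounds fell. Cyp12d1-d, which is inducible by DDT and caffeine, had 4.82, 5.32, 5.30 and 4.84 in HSD-fed F0 females, against 6.09, 6.35, 6.54 and 6.20 in CD-fed females. It fell by 1.23 (SE 0.14, adjusted p = 0.00016) in females and by 0.90 (SE 0.11, adjusted p = 0.00034) in males. A further probe set matches both Cyp12d1-d and its near-identical copy, and was not used. The mitochondrial pair Cyp12a4, known from lufenuron resistance, and Cyp12a5 fell together. The change of Cyp12a4 was -1.11 in females and -0.55 in males, and that of Cyp12a5 was -1.44 in females and -0.63 in males. Cyp6a8, inducible by caffeine and DDT, fell by 0.69 in females and by 0.72 in males.

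Cyp6g1, whose overexpression confers DDT resistance, had 13.20, 13.14, 13.34 and 13.17 in HSD-fed F0 females, against 13.54, 13.71, 13.60 and 13.75 in CD-fed females. It fell by 0.44 (SE 0.063, adjusted p = 0.00056) in females and by 0.18 (SE 0.035, adjusted p = 0.0035) in males, with no overlap in either sex. Cyp6a2, another gene tied to DDT resistance, fell by 0.56 in females and by 0.38 in males. Cyp6w1 fell by 1.19 (SE 0.097, adjusted p = 1.9e-05) in females, to 10.92 ± 0.14 against 12.10 ± 0.17. In males Cyp6w1 changed by -0.14 (adjusted p = 0.21), with overlapping groups.

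**Figure D2:**
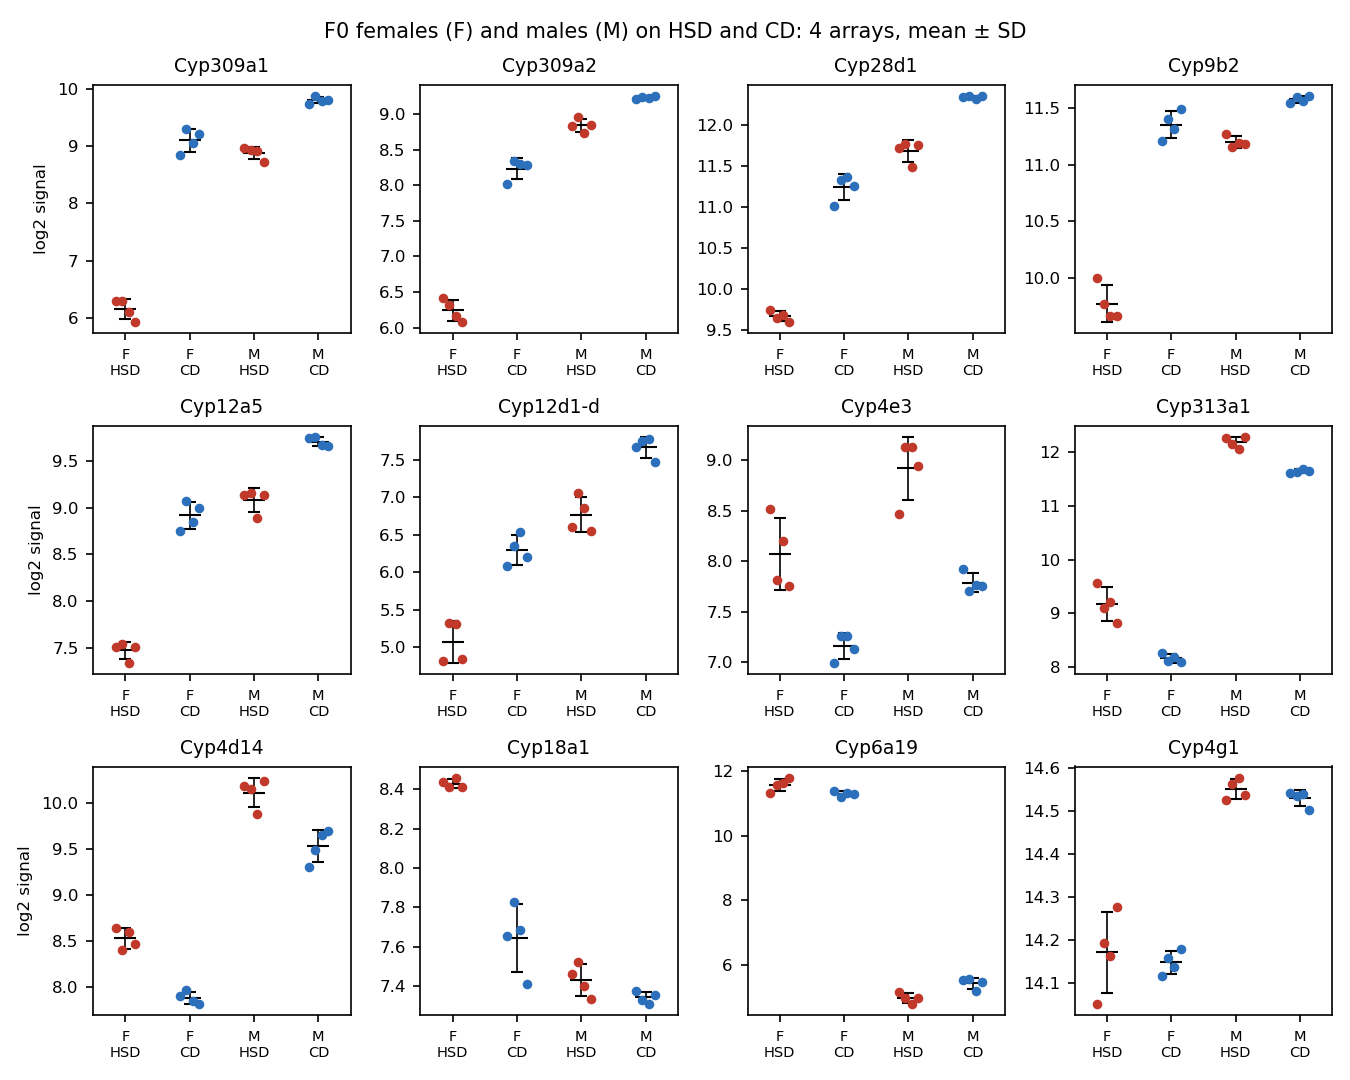
Log2 signals of 12 P450 genes in the 4 groups of F0 arrays, females (F) and males (M), HSD in red and CD in blue; dots are the 4 arrays and bars the mean ± SD, and each panel has its own scale. Cyp309a1 to Cyp12d1-d lie lower on HSD in both sexes, Cyp4e3, Cyp313a1 and Cyp4d14 higher, and Cyp4g1 overlaps between diets.

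Of the 7 genes that rose in both sexes, 5 are of the CYP4 clan, and the others are Cyp12b2 and Cyp310a1. Cyp310a1 averaged 3.756 in CD-fed F0 females, under the 25th percentile of 3.7595 there. It was thus tested in females only through the HSD-fed group, where it was higher. Cyp4e3, known for permethrin tolerance, had 8.51, 7.81, 8.20 and 7.75 in HSD-fed F0 females, against 7.00, 7.26, 7.27 and 7.14 in CD-fed females, a change of 0.91 (SE 0.16, adjusted p = 0.0015). In males it had 8.47, 9.13, 9.13 and 8.95 on HSD, against 7.93, 7.70, 7.77 and 7.76 on CD, a change of 1.13 (SE 0.13, adjusted p = 0.00024). Neither sex showed overlap, though the HSD-fed arrays of Cyp4e3 were the more scattered. Cyp313a1 rose by 1.01 in females, to 9.17 ± 0.31 against 8.16 ± 0.082, and by 0.54 in males, to 12.19 ± 0.098 against 11.65 ± 0.031. The neighbours Cyp4d14 and Cyp4d1 both rose, Cyp4d14 by 0.64 in females and 0.58 in males and Cyp4d1 by 0.44 and 0.34. Cyp4d2, which lies in the same run of genes, was called in neither sex, and Cyp4ae1 fell by 0.51 in females. Cyp4d21, also called sex-specific enzyme 1 and known for its male bias and a role in mating, rose by 0.68 in females and by 0.48 in males.

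The gene of this family best known in lipid metabolism did not pass. Cyp4g1 encodes the oenocyte enzyme that makes cuticular hydrocarbons from long-chain fatty aldehydes. It had 14.05, 14.19, 14.16 and 14.28 in HSD-fed F0 females, against 14.12, 14.16, 14.14 and 14.18 in CD-fed females. Its change was 0.02 (SE 0.052, adjusted p = 0.75) in females and 0.02 (SE 0.033, adjusted p = 0.67) in males, and these signals lay near the top of the range of the arrays. Among 14 other genes of hydrocarbon synthesis tested, 3 rose and 1 fell in F0 females, and 6 rose and 1 fell in F0 males. The share that rose in females lay near the 23.1% of all genes, while in males 19.6% of all genes rose. The 5 oenocyte markers are part of that hydrocarbon list, and FASN2 and CG17562 below are among them, so these are not separate observations. In each sex 2 of the 5 rose and none fell. Their summed signal was 12.57 to 12.94 in HSD-fed and 12.49 to 12.67 in CD-fed females, and 13.33 to 13.44 in HSD-fed and 13.23 to 13.30 in CD-fed males. Their part was not tested. FASN2, an oenocyte fatty acid synthase, rose by 0.29 in females (adjusted p = 0.027, and up to 0.063 with 1 array left out) and by 0.38 in males, and the reductase-like gene CG17562 by 0.43 and 0.58. ACC, which makes malonyl-CoA for fatty acid synthesis, fell by 0.42 in females and by 0.19 in males.

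Genes of steroid hormone metabolism moved in F0 females. Cyp18a1, the enzyme that inactivates ecdysone, had 8.44, 8.41, 8.46 and 8.41 in HSD-fed F0 females, against 7.65, 7.83, 7.68 and 7.41 in CD-fed females. It rose by 0.79 (SE 0.078, adjusted p = 6.3e-05) in females, and changed by 0.09 (adjusted p = 0.18) in males, where the groups overlapped. Of 8 genes of ecdysone synthesis that do not carry a Cyp symbol, 7 could be tested in females, and 6 were lower and none higher, with a median of -0.63. Among all genes tested in females 18.2% were lower and 23.1% higher, with a median of 0.02. The P450 genes spo, phtm, sad and dib fell by 1.55, 0.68, 0.67 and 0.48, sro by 0.63, and nvd by 0.52 (adjusted p = 0.028, and up to 0.070 with 1 array left out). In males 4 of the 8 could be tested, and none was called by limma, with adjusted p-values of 0.12 to 0.95 and 0 under 0.05 before adjustment. In adult females these genes are known to be active in the ovary. Among 6 ovary markers 1 rose and 1 fell, and their summed signal was 15.21 to 15.60 in HSD-fed and 14.87 to 15.46 in CD-fed F0 females. Their part in these changes was not tested.

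The diet response differed between the sexes for 34 of 80 P450 genes tested, 23 more negative and 11 more positive in females, against 30.3% of all genes tested (15.8% and 14.5%). Of 25 genes that fell in both sexes, 22 had the larger fall in females, and 17 of the 23 negative differences were among them. How often all genes that fell in both sexes fell further in females was not counted. The difference (females minus males) was -2.02 for Cyp309a1 (SE 0.13, adjusted p = 2.1e-08), -1.60 for Cyp309a2, -1.31 for Cyp9h1, -1.20 for Cyp9b2, -1.04 for Cyp6w1 and -0.91 for Cyp28d1. It was 0.70 for Cyp18a1 (SE 0.094, adjusted p = 5.3e-05) and 0.63 for Cyp12b2, which rose by 0.85 in females and by 0.23 in males.

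The sexes also differed within the run of 9 neighbouring genes that holds Cyp6a22, Cyp6a17, Cyp6a23, Cyp6a19, Cyp6a9, Cyp6a20, Cyp6a21, Cyp6a8 and Cyp317a1. In F0 males 8 of the 9 fell, and in F0 females 3 fell, 2 rose and 4 were not called. Cyp6a20, known for its effect on male aggression, had 9.58, 9.44, 9.39 and 9.47 in HSD-fed females, against 9.10, 9.33, 9.19 and 9.27 in CD-fed females. In males Cyp6a20 had 11.16, 11.12, 11.05 and 11.14 on HSD, against 11.26, 11.30, 11.37 and 11.33 on CD. The groups did not overlap in either sex, and the changes were 0.25 (SE 0.062, adjusted p = 0.010) in females and -0.20 (SE 0.040, adjusted p = 0.0050) in males, a difference of 0.45 (adjusted p = 0.00041). Cyp6a19 changed by 0.27 (adjusted p = 0.035, and up to 0.090 with 1 array left out) in females, where the groups overlapped, and by -0.45 (adjusted p = 0.0053) in males. Cyp6a9 fell by 0.60 in males and changed by -0.15 in females, a difference of 0.45 (adjusted p = 0.0069).

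Some members differ widely in level between the sexes, described here across sets normalized apart. On CD, Cyp6a19 averaged 11.30 in F0 females and 5.43 in F0 males. Cyp4d21 averaged 4.63 in females and 10.21 in males, and Cyp312a1 4.74 and 10.43. The mean was more than 1 log2 unit lower in females than in males for 38 of the 81 P450 genes and more than 1 unit higher for 3, beside a median of -0.02 over all genes. The share of all genes that differ this much was not counted, so it is not known whether P450 genes stand apart here.

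Glutathione transferases and UDP-glycosyltransferases work after P450s in detoxification. Of 33 glutathione transferase genes tested, 19 fell and 1 rose in F0 females, with a median of -0.25, and 18 fell and 3 rose in F0 males, with a median of -0.21. Of 32 UDP-glycosyltransferase genes tested, 17 fell and 1 rose in females and 13 fell and 1 rose in males. Among all genes tested 18.2% fell in females and 11.1% in males. Of 4 tested proteins that pass electrons to P450s or are related to those that do, 3 fell and 1 rose in females, and 2 fell and 1 rose in males. Cyt-b5-r, a relative of cytochrome b5, fell by 0.84 in females and by 0.30 in males, and the ferredoxin Fdx2 by 0.41 and 0.45. Of 6 genes of haem synthesis and breakdown tested, 3 fell in females, among them Alas, the first enzyme of haem synthesis, by 0.35 (adjusted p = 0.00024), and none was called in males by limma (0 under 0.05 before adjustment).

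Of 10 tested regulators known to act on detoxification genes, 4 fell and 2 rose in F0 females, where 41.4% of all genes were called, and 1 fell and 2 rose in F0 males, a share near the 30.7% of all genes. Hr96, a nuclear receptor that responds to xenobiotics and lipids, fell by 0.50 (SE 0.048, adjusted p = 5.0e-05) in females and changed by -0.09 (adjusted p = 0.18) in males. The Nrf2 homologue cnc fell by 0.24 in females (adjusted p = 0.011), a call that ended when all probe sets of the gene were averaged, and its partner maf-S rose by 0.30. The sugar-responsive transcription factor sug rose by 1.97 in females and by 1.61 in males.

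Markers of tissues rich in P450s moved with diet too, where 41.4% of all genes were called in females and 30.7% in males. Of 7 fat body markers 2 rose and 2 fell in F0 females, and their summed signal was 14.09 to 14.22 on HSD and 14.69 to 14.85 on CD. In F0 males 3 rose and 2 fell, with 14.73 to 14.81 on HSD and 14.89 to 14.97 on CD. Of 5 Malpighian tubule markers 2 rose and 1 fell in females, and 3 rose and 1 fell in males. Their summed signal was 10.57 to 10.78 on HSD and 10.86 to 11.02 on CD in females, and 11.54 to 11.59 on HSD and 11.42 to 11.51 on CD in males. Of 7 midgut markers 5 rose and 1 fell in females, with sums of 15.12 to 15.23 on HSD and 15.20 to 15.30 on CD. In males 2 rose and 1 fell, with 15.62 to 15.67 on HSD and 15.56 to 15.60 on CD. Such a sum follows the brightest markers and can differ in sign from the median change of a list. Those medians were 0.09 for fat body, 0.01 for tubule and 0.36 for midgut markers in females. In males they were -0.11, 0.17 and 0.18. The part of these markers in the P450 changes was not tested.

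Ancestry from HSD-fed F0 males was followed by higher P450 signals in some F1 groups. In HSD-fed F1 females 14 of 77 genes tested were called, 13 higher and 1 lower, against 4.12% of all genes (3.04% higher and 1.09% lower). In CD-fed F1 females 9 of 78 were called, all higher, against 2.65% of all genes (2.49% higher). In CD-fed F1 males 12 of 77 were called, 11 higher and 1 lower, against 4.52% of all genes (3.21% higher and 1.31% lower), and in HSD-fed F1 males 0 of 78, against 0% of all genes. Over the 8 ancestry comparisons 33 P450 genes were called at least once, in 44 pairs of a gene and a comparison, 39 of them higher with HSD ancestry. Of the 35 pairs in F1, 33 were higher, and of the 9 in F2, 6 were higher. Such pooled counts were not made over all genes, where most calls in F1 were higher too. Nor were they made without the 6 arrays that held transcripts of the other sex.

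**Figure D3:**
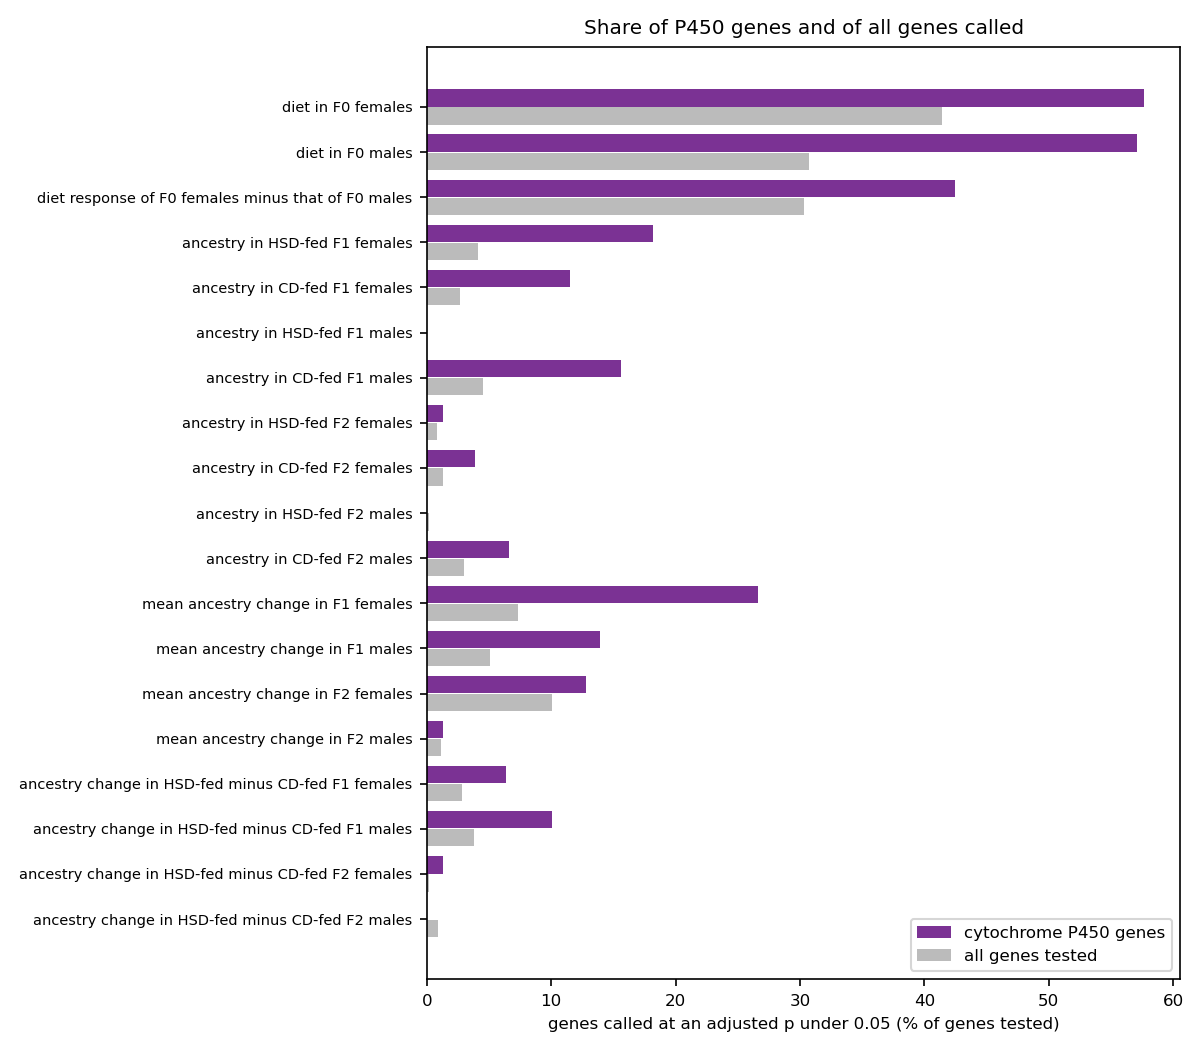
Share of the P450 genes (purple) and of all genes (grey) called at an adjusted p under 0.05 in the 19 comparisons, as a percentage of the genes tested. In HSD-fed F1 females the shares were 18.2% and 4.12%, and in HSD-fed F1 males both were 0.

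These F1 counts fell without single arrays, in CD-fed F1 females without any 1 of the 8. In each fit below without 1 array, fewer of all genes were called too. In CD-fed F1 males 488 calls over all genes became 154 without replicate 1 of CD ancestry. In HSD-fed F1 females 428 became 262 without replicate 1 of HSD ancestry. In CD-fed F1 females 271 became 95 without replicate 4 of CD ancestry. The falls were thus not limited to P450 genes. In CD-fed F1 males the P450 count was 4 without replicate 1 of either ancestry. It was 5 without replicate 4 of HSD ancestry or replicate 3 of CD ancestry. It was 2 without both arrays that held transcripts of the other sex, namely Cyp4ac2 and Cyp4d14. In HSD-fed F1 females it was 7 without replicate 1 of HSD ancestry, the array that held male transcripts. It was 5 and 9 there without replicates 3 and 4 of HSD ancestry, and 6, 5 and 6 without replicates 1, 2 and 3 of CD ancestry. In CD-fed F1 females it was 4, 5, 3 and 5 without replicates 1 to 4 of HSD ancestry, and 2, 5, 4 and 1 without replicates 1 to 4 of CD ancestry.

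Tissue markers moved with ancestry in the same F1 groups. Of 5 oenocyte markers 3 were called higher in HSD-fed F1 females, 2 in CD-fed F1 females and 2 in CD-fed F1 males, and none was called in HSD-fed F1 males or called lower in any of the 4. Their summed signal was 13.25 to 13.44 with HSD ancestry and 13.10 to 13.20 with CD ancestry in HSD-fed F1 females, and 12.97 to 13.13 and 12.79 to 12.98 in CD-fed F1 females. In CD-fed F1 males it was 13.11 to 13.16 with HSD ancestry and 12.89 to 13.10 with CD ancestry, and 13.86 to 13.93 and 13.84 to 13.95 in HSD-fed F1 males. Of 7 midgut markers 2 were called higher in CD-fed F1 females, with sums of 15.56 to 15.58 with HSD ancestry and 15.32 to 15.45 with CD ancestry, and 1 in CD-fed F1 males, with 15.84 to 15.90 and 15.73 to 15.77. None of the 7 was called in HSD-fed F1 females, where the sums were 15.45 to 15.52 and 15.43 to 15.50. Of 7 fat body markers 1 was called, higher, in HSD-fed F1 females, and of 5 tubule markers none was called in the 4 groups. Of 6 ovary markers 1 was called, higher, in CD-fed F1 females, though their median change there was -0.24. Before adjustment 5 of those 6 had a limma p under 0.05. Their sums were 14.61 to 14.86 with HSD ancestry and 14.55 to 14.93 with CD ancestry. In HSD-fed F1 females none of the 6 was called, with a median of -0.02. All these marker values include the arrays that held transcripts of the other sex. The part of these markers in the P450 changes was not tested.

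Cyp309a1 was the gene called higher in most ancestry comparisons, 3 of 8, and its change was positive in 8 of 8. In HSD-fed F1 females it had 8.56, 8.54, 8.56 and 8.28 with HSD ancestry, against 7.90, 7.72, 7.72 and 8.07 with CD ancestry, a rise of 0.63 (SE 0.095, adjusted p = 0.012). In CD-fed F1 females it had 9.45, 9.56, 9.63 and 9.54 with HSD ancestry, against 9.29, 9.23, 9.22 and 9.21 with CD ancestry, a rise of 0.31 (SE 0.050, adjusted p = 0.014). In CD-fed F2 females it had 8.79, 8.83, 8.85 and 8.94 with HSD ancestry, against 8.49, 8.50, 8.43 and 8.49 with CD ancestry, a rise of 0.37 (SE 0.053, adjusted p = 0.0073). In none of the 3 did the groups overlap. Without the array of HSD-fed F1 females that held male transcripts the rise of Cyp309a1 there was 0.61 (adjusted p = 0.036). With 1 array of CD-fed F1 females left out its adjusted p reached 0.054. The rise averaged over both own diets was 0.47 (SE 0.055, adjusted p = 0.00017, and 0.00056 without that array) in F1 females and 0.27 (SE 0.056, adjusted p = 0.0088) in F2 females. In F0 females HSD itself went with a fall of this gene, on arrays that none of these comparisons share.

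**Figure D4:**
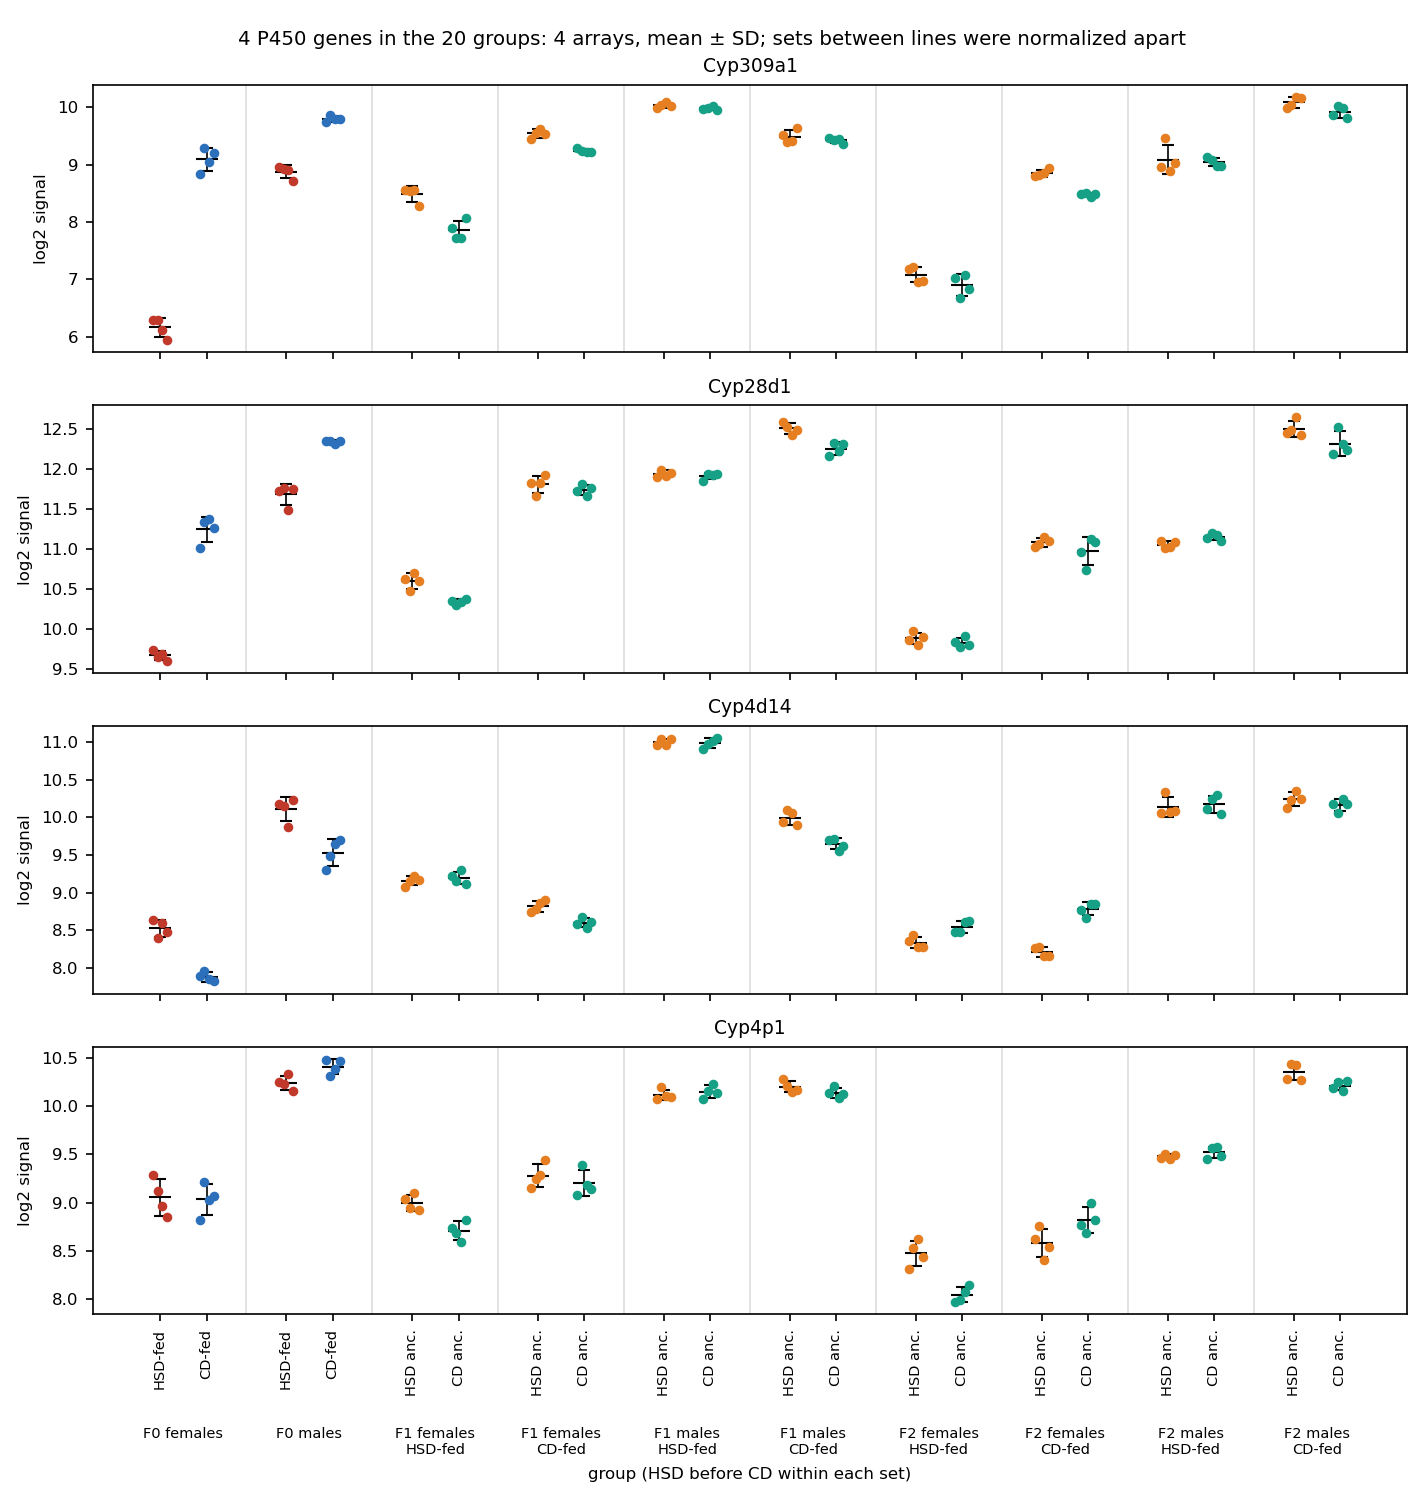
Log2 signals of Cyp309a1, Cyp28d1, Cyp4d14 and Cyp4p1 in the 20 groups; dots are the 4 arrays, bars the mean ± SD, and vertical lines part sets that were normalized separately. Within each set HSD diet (red) or HSD ancestry (orange) stands left of CD diet (blue) or CD ancestry (green). Cyp309a1 lies higher with HSD ancestry in HSD-fed F1, CD-fed F1 and CD-fed F2 females.

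Other members were called in F1 females. Averaged over both own diets, 21 of 79 P450 genes were higher and none lower, against 7.34% of all genes called (5.99% higher and 1.36% lower). Without the array that held male transcripts the count was 18, and with any 1 array left out 14 to 21. In the same average 4 of 5 oenocyte, 4 of 7 midgut and 2 of 7 fat body markers were called higher and none of these lower. Of 6 ovary markers 2 were called lower and none higher, and none of 5 tubule markers was called. The part of these markers was not tested. Cyp4d2 rose by 0.24 (SE 0.024, adjusted p = 5.7e-05), Cyp309a2 by 0.30, Cyp6a18 by 0.28, Cyp4g15, a glial relative of Cyp4g1, by 0.20, and Cyp4g1 itself by 0.08 (adjusted p = 0.045). Without the array that held male transcripts Cyp4d2 rose by 0.24, Cyp309a2 by 0.28, Cyp6a18 by 0.29 and Cyp4g15 by 0.20, all still called, while the change of Cyp4g1 was 0.07 (adjusted p = 0.094). The call of Cyp4g1 was lost without any 1 of 13 of the 16 arrays. In HSD-fed F1 females Cyp6a8 had 10.20, 10.07, 10.30 and 10.10 with HSD ancestry, against 9.81, 9.86, 9.87 and 9.83 with CD ancestry, a rise of 0.32 (adjusted p = 0.013, and 0.039 without the array that held male transcripts). Cyp28d1 had 10.63, 10.48, 10.71 and 10.60, against 10.35, 10.30, 10.34 and 10.37, a rise of 0.26 (adjusted p = 0.022). Without the array that held male transcripts its rise was 0.25 (adjusted p = 0.059). No array overlapped for either gene, and Cyp28d1 lost its call without any 1 of 6 of the 8 arrays, with an adjusted p of up to 0.070.

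The ancestry change differed between HSD-fed and CD-fed F1 females for 5 of 79 genes, all more negative on HSD, against 2.86% of all genes (0.721% higher and 2.14% lower). With any 1 array left out the count was 2 to 7. HSD-fed and CD-fed arrays were normalized apart, so own diet and batch cannot be told apart in any of these differences. Cyp6d2 had 8.84, 8.91, 8.85 and 8.89 in CD-fed F1 females of HSD ancestry, against 8.53, 8.55, 8.64 and 8.51 with CD ancestry, a rise of 0.32 (adjusted p = 0.010). The difference for Cyp6d2, HSD-fed minus CD-fed, was -0.36 (SE 0.058, adjusted p = 0.0037). For Cyp9h1 it was -0.38 (adjusted p = 0.012), and for Cyp4s3, Cyp318a1 and Cyp6a21 it lay between -0.44 and -0.35. Without the array that held male transcripts 4 remained called, with adjusted p-values of 0.0093 for Cyp6d2, 0.0048 for Cyp9h1, 0.0498 for Cyp4s3 and 0.045 for Cyp318a1, and Cyp6a21 was not called (-0.35, adjusted p = 0.054).

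The ancestry change also differed between HSD-fed and CD-fed F1 males. The change in HSD-fed minus that in CD-fed males was called for 8 of 79 genes, all negative, against 3.77% of all genes (0.97% higher and 2.8% lower), and for 4 without both arrays that held transcripts of the other sex. Cyp4ac2 had 7.95, 7.88, 7.74 and 7.78 in CD-fed F1 males of HSD ancestry, against 7.31, 7.35, 7.26 and 7.47 with CD ancestry, a rise of 0.49 (SE 0.064, adjusted p = 0.0025). Its difference between own diets was -0.53 (SE 0.075, adjusted p = 0.0015). For Cyp9f2 this difference was -0.40 (adjusted p = 0.0013), and for Cyp4d14 -0.34 (adjusted p = 0.019). Without both arrays that held transcripts of the other sex these differences were -0.51 for Cyp4ac2 (adjusted p = 0.0071), -0.40 for Cyp9f2 (adjusted p = 0.0056) and -0.42 for Cyp4d14 (adjusted p = 0.012). The rise of Cyp4ac2 in CD-fed males was then 0.46 (adjusted p = 0.035). Cyp9f2 had 11.49, 11.54, 11.57 and 11.59 in CD-fed males of HSD ancestry, against 11.22, 11.22, 11.34 and 11.23 with CD ancestry. Without both arrays that held transcripts of the other sex, the rise of Cyp9f2 was 0.30 (adjusted p = 0.087). In HSD-fed males the change of Cyp9f2 was -0.10 (adjusted p = 0.27). There 7 P450 genes were under 0.05 before adjustment, and Cyp28c1, which changed by 0.15, came closest after it (adjusted p = 0.26). Averaged over both own diets 11 of 79 genes were higher in F1 males, against 5.09% of all genes (3.6% higher and 1.49% lower), and 3 without both arrays that held transcripts of the other sex. With any 1 array left out the count was 4 to 13.

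**Figure D5:**
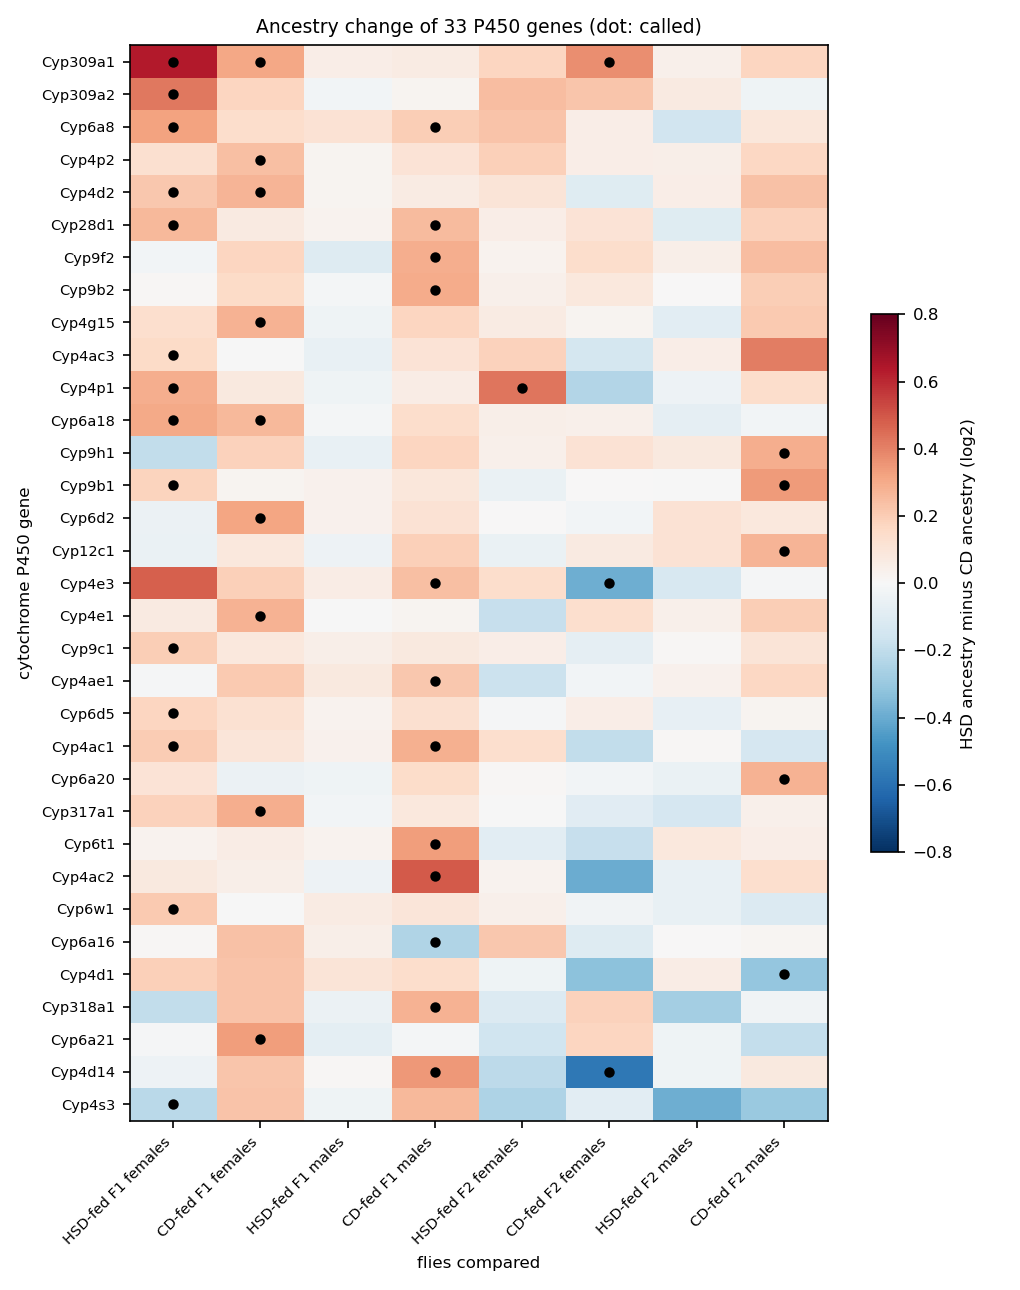
Change with HSD against CD ancestry (log2 colour scale, red higher and blue lower with HSD ancestry) of the 33 P450 genes called in at least 1 of the 8 ancestry comparisons; dots mark calls. Of 44 calls, 39 are higher with HSD ancestry, and neither group of HSD-fed males has any. Over all genes, too, most calls in F1 were higher.

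In F2 fewer members were called. In CD-fed F2 females 3 of 77 were called, 1 higher and 2 lower, against 1.29% of all genes (0.499% higher and 0.793% lower), and 6 were called without replicate 2 of either ancestry. Cyp4d14 had 8.27, 8.27, 8.16 and 8.16 with HSD ancestry, against 8.77, 8.67, 8.85 and 8.85 with CD ancestry, a fall of 0.57 (SE 0.061, adjusted p = 0.0026) with no overlap. Cyp4d14 was higher with HSD ancestry in CD-fed F1 males, at 9.93, 10.09, 10.06 and 9.90, against 9.69, 9.72, 9.56 and 9.62 with CD ancestry (0.35, SE 0.061, adjusted p = 0.010, and 0.032 without the arrays that held transcripts of the other sex). Cyp4e3 likewise was lower in CD-fed F2 females, by 0.39 (adjusted p = 0.024, up to 0.089 with 1 array left out), and higher in CD-fed F1 males, by 0.24 (adjusted p = 0.026, and 0.15 without those arrays). Averaged over both own diets in F2 females, 10 of 78 genes were called, 3 higher and 7 lower, against 10.1% of all genes (2.43% higher and 7.69% lower), a share near that of all genes. With any 1 array left out the count was 4 to 12. Among the 10 genes Cyp4d14 fell by 0.39 (SE 0.040, adjusted p = 6.1e-05). Of 6 ovary markers 3 were called lower and none higher in CD-fed F2 females. Their summed signal there was 14.81 to 14.91 with HSD ancestry and 15.26 to 15.52 with CD ancestry. Of 7 fat body markers 1 was called, higher, and no oenocyte, midgut or tubule marker was. In HSD-fed F2 females 1 of the 6 ovary markers was called, lower, with sums of 14.80 to 14.90 and 15.11 to 15.21. The part of these markers was not tested.

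In HSD-fed F2 females 1 of 77 genes was called, Cyp4p1, against 0.789% of all genes (0.404% higher and 0.385% lower). Cyp4p1 had 8.31, 8.53, 8.62 and 8.43 with HSD ancestry, against 7.97, 7.99, 8.07 and 8.14 with CD ancestry, a rise of 0.43 (SE 0.069, adjusted p = 0.028). The groups did not overlap, but the call was lost without any 1 of 7 of the 8 arrays (adjusted p up to 0.087). It was also the 1 of 78 genes whose ancestry change differed between own diets in F2 females, by 0.67 (SE 0.12, adjusted p = 0.027, and up to 0.079 with 1 array left out), against 0.169% of all genes.

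In CD-fed F2 males 5 of 76 genes were called, 4 higher and 1 lower, against 2.99% of all genes (2.14% higher and 0.85% lower). Cyp9b1 had 9.04, 9.12, 9.19 and 8.94 with HSD ancestry, against 8.72, 8.76, 8.80 and 8.64 with CD ancestry, a rise of 0.34 (SE 0.070, adjusted p = 0.034). Cyp4d1 had 7.92, 7.78, 7.91 and 7.82 with HSD ancestry, against 8.10, 8.09, 8.23 and 8.24 with CD ancestry, a fall of 0.31 (adjusted p = 0.037). Neither overlapped, but Cyp9b1 and Cyp4d1 lost their calls without any 1 of 5 and of 6 of the 8 arrays, and the count was 0, 0, 1 and 2 without replicates 1 to 4 of HSD ancestry and 0 without replicate 1 or 3 of CD ancestry. In HSD-fed F2 males 0 of 77 were called by limma, against 0.201% of all genes (0.192% higher and 0.00913% lower), and 8 had an unadjusted p under 0.05. Cyp6a19, a gene of far higher signal in females, had 5.99, 6.30, 5.48 and 5.87 with HSD ancestry, against 5.19, 5.31, 5.07 and 5.08 with CD ancestry, a change of 0.75 (adjusted p = 0.13). The 3 highest of these arrays are those that held transcripts of the other sex. Without them the change was 0.31, with 1 array of HSD ancestry left. That array itself stood 0.38 above the lowest of its set in such transcripts, under the cutoff of 0.5, so this value is not free of them. Averaged over both own diets 1 of 77 genes was called in F2 males, Cyp12c1, by 0.19 (adjusted p = 0.045), against 1.17% of all genes (0.968% higher). Its call was lost without any 1 of 11 of the 16 arrays. Without the arrays that held transcripts of the other sex, which leaves 1 array in a group, its change was 0.20. None of 77 had an ancestry change that differed between own diets, against 0.923% of all genes, and 25 had an unadjusted p under 0.05 there.

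Genes that fell with sugar in F0 were also set against ancestry in the same sex, on separate arrays. Of 31 genes that fell in F0 females, 9 were called higher and 1 lower with HSD ancestry in HSD-fed F1 females, where 14 of all 77 were called. There 22 of the 31 had a positive sign, beside 22 of 32 genes not called in F0. The same counts were 25 of 31 and 24 of 32 in CD-fed F1 females, 19 of 31 and 22 of 32 in HSD-fed F2 females, and 21 of 31 and 10 of 32 in CD-fed F2 females. Among genes that fell in F0 males, 35 of 37 had a positive sign in CD-fed F1 males, beside 26 of 33 not called in F0. In the other male groups the counts were 15 of 36 and 20 of 33 in HSD-fed F1, 17 of 36 and 17 of 33 in HSD-fed F2, and 30 of 36 and 22 of 33 in CD-fed F2. In CD-fed F2 females the Pearson correlation of the 2 changes over 77 genes was -0.55, and over the 8 ancestry comparisons it ran from -0.55 to 0.26. Genes are not independent replicates, and no test was made of it. These counts and correlations include the arrays that held transcripts of the other sex.

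The flies' own diet in F1 and F2 was compared across sets normalized apart, where batch and diet cannot be told apart, so no test was made. The median gene differed between HSD-fed and CD-fed sets by between -0.36 and 0.42. Relative to that median, Cyp28d1 was lower in HSD-fed than in CD-fed flies in all 8 combinations of generation, sex and ancestry, with differences of -1.74 to -0.76. Relative to it, the difference of Cyp309a1 was -1.39 in F1 females of HSD ancestry and -1.73 in those of CD ancestry, and -1.66 and -1.44 in F2 females. It was 0.13 and 0.14 in F1 males, and -0.64 and -0.53 in F2 males. Of the 31 genes that fell in F0 females, 25 lay below the median gene in HSD-fed F1 females of HSD ancestry and 27 in those of CD ancestry, and in F2 females 23 with either ancestry. Of the 37 genes that fell in F0 males, 22 lay below it in HSD-fed F1 males of HSD ancestry and 19 in those of CD ancestry, and 27 and 24 in F2 males.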

How the data were processed

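The deposited values are on a log2 scale, with a value for each probe set on each array. The submitters' processing notes name RMA and limma. No versions are given in the sources used here. Each of the 80 columns was mapped to a sample by its label, and arrays carry no counts or depth. Of 18952 probe sets, 13647 with 1 gene symbol gave 11982 genes. Controls and probe sets of several or no symbols were left out. All 83 member symbols matched an Entrez-keyed RefSeq list unchanged, and 2 members had several probe sets.

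Each of 19 comparisons was fitted in limma 3.58.1 (R 4.3.3, the data.table package, version 1.17.8), with lmFit, contrasts and eBayes, two-sided, over all genes. A gene was tested if its mean passed the 25th percentile of probe sets in at least 1 group fitted. Averaged ancestry changes had the own-diet batch as a term. Sets, tables and figures used Python 3.11.15, pandas 2.3.3, numpy 2.4.6 and matplotlib 3.10.9, and the fits were tested on simulated data. Genes named followed a rule: up to 15 rises and 15 falls among the calls in F0 and 6 of each in ancestry comparisons (the 3 smallest p where none was called), members called in both F0 sexes or in 3 or more ancestry comparisons, members of known role, and genes of the lists. Members, lists and the rule were chosen with earlier results of these data known. Neighbours are genes with at most 5 genes between them in RefSeq's order.

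Whether replicate arrays stem from separate vials is not in the labels, so the p-values reflect the spread of these arrays alone, and that spread may be technical. Alternatives were no filter, a 50th percentile filter, further quantile normalization, the mean of a gene's probe sets, a joint fit of the 80 arrays, a trended robust prior for the variance, the replicate number as a block, averages without the batch term, omission of each array in turn, and omission of the arrays with opposite-sex transcripts. Such transcripts were 78 genes limited to females and 652 to males, at least 5 log2 units apart in CD-fed F0 flies. Among them are the members Cyp6a19, Cyp312a1 and Cyp4d21.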

Additional observations from a re-analysis of the deposited data

Results flagged for a closer look

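In groups of 4 arrays, 1 array stood apart from the other 3 in 9 of 132 combinations of gene and group checked, where chance gives about 1 in 20. In replicate 3 of HSD-fed F0 males Cyp28d1 had a log2 signal of 11.49, Cyp12a5 8.89 and Cyp12a4 10.95, each the lowest of its group. In replicate 3 of HSD-fed F0 females Cyp12a5 had 7.34, the lowest. Replicate 1 of CD-fed F0 females had the lowest Cyp12b2, 6.68, and replicate 2 of CD-fed F0 males the highest Cyp6w1, 12.87. Replicate 4 of HSD-fed F1 females of HSD ancestry had the lowest Cyp309a1, 8.28. Replicate 3 of CD-fed F1 males of CD ancestry had the highest Cyp9f2, 11.34, and replicate 3 of CD-fed F2 females of CD ancestry the lowest Cyp309a1, 8.43.

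The diet change differed between F0 females and F0 males by limma's interaction term (females minus males, log2). It was more negative in females for Cyp309a1 (-2.02), Cyp309a2 (-1.60), Cyp9h1 (-1.31), Cyp9b2 (-1.20), Cyp6w1 (-1.04), Cyp28d1 (-0.91), Cyp28a5 (-0.88), Cyp12a5 (-0.81), Cyp6a18 (-0.77), Cyp4s3 (-0.76), Cyp6d5 (-0.66) and Cyp12a4 (-0.56). It was more positive in females for Cyp6a19 (0.72), Cyp18a1 (0.70), Cyp12b2 (0.63), Cyp313a3 (0.61), Cyp4ac3 (0.51), Cyp313a1 (0.47), Cyp6a9 (0.45) and Cyp6a20 (0.45). The call of Cyp313a1 was lost in 6 of 16 fits that left out 1 array (adjusted p up to 0.060).

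The ancestry change differed between HSD-fed and CD-fed flies by the same kind of term (HSD-fed minus CD-fed). In F1 males the difference was -0.53 for Cyp4ac2, -0.40 for Cyp9f2, -0.34 for Cyp4d14, -0.31 for Cyp9b2, -0.30 for Cyp6t1 and -0.28 for Cyp6a23. In F1 females it was -0.44 for Cyp4s3, -0.43 for Cyp318a1, -0.38 for Cyp9h1, -0.36 for Cyp6d2 and -0.35 for Cyp6a21. In F2 females it was 0.67 for Cyp4p1. Without the arrays that held transcripts of the other sex Cyp9b2 (adjusted p = 0.15), Cyp6a23 (0.064) and Cyp6a21 (0.054) were no longer called. With 1 array left out, Cyp4p1 lost its call in 8 of 16 fits (adjusted p up to 0.079), Cyp9b2 in 9, Cyp6a21 in 8, Cyp318a1 in 7, Cyp6a23 and Cyp6t1 in 6 each, and Cyp4s3 in 1.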

How the results depend on the processing

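F0 counts of P450 genes called stayed within 1.5 times under every alternative: 41 to 47 in males, 42 to 52 in females and 31 to 36 for the sex difference with 1 array left out. With the replicate number as a replicate block they were 42, 44 and 34. The labels share replicate numbers and do not say whether these pair the arrays. In 0 of the sets did every same-numbered correlation exceed 0.1 (range -0.41 to 0.62). That rule cannot exclude pairing in part of the arrays. In HSD-fed F1 females the correlation was 0.62 for replicate 1 and 0.32 for replicate 4, but 0.035 and -0.058 for replicates 2 and 3.

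Counts of ancestry calls moved more, and the causes were not tested. With 1 array left out they ran 4 to 14 in CD-fed F1 males, 1 to 5 in CD-fed and 5 to 14 in HSD-fed F1 females, 0 to 4 in CD-fed and 0 to 1 in HSD-fed F2 males, and 2 to 6 in CD-fed and 0 to 1 in HSD-fed F2 females. Averaged over own diets they ran 4 to 13 in F1 males, 14 to 21 in F1 females, 0 to 3 in F2 males and 4 to 12 in F2 females. For the difference between own diets they ran 3 to 11, 2 to 7, 0 to 1 and 0 to 2 in the same order. A replicate block gave 4 in CD-fed and 1 in HSD-fed F1 females, 1 in CD-fed F2 males, 0 in HSD-fed F2 females, 7 and 0 for the averages in F1 and F2 males, and 0 for the difference in F2 females. Under it the adjusted p of Cyp309a1 was 0.060 in HSD-fed F1, 0.053 in CD-fed F1 and 0.020 in CD-fed F2 females, and that of Cyp4p1 for the difference in F2 females 0.057. Without arrays holding opposite-sex transcripts the counts were 2 in CD-fed F1 males, 7 in HSD-fed F1 females, 3 and 0 for the averages in F1 and F2 males, and 4 for the difference in F1 males. With no batch term the averages gave 0, 0, 0 and 1 in F1 males, F1 females, F2 males and F2 females.

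The 50th percentile filter gave 19 in CD-fed F1 males, 10 in CD-fed F2 males (3 with no filter), 2 for the average in F2 males, and 13 and 1 for the differences in F1 and F2 males. The trended robust prior gave 19 in CD-fed F1 males, 11 in CD-fed F2 males, 6 and 2 in CD-fed and HSD-fed F2 females, 3 for the average in F2 males, and 1 and 2 for the differences in F2 males and females. Further quantile normalization gave 3 in CD-fed F1 females, 3 in HSD-fed F2 females, and 1 and 2 for the differences in F2 males and females, and the mean of all probe sets gave 1 for that in F2 males. The fit of all 80 arrays gave 8 in HSD-fed F1 females, 22 and 3 in CD-fed and HSD-fed F2 males, 13 and 4 in CD-fed and HSD-fed F2 females, 4 and 13 for the averages in F1 and F2 males, and 3, 2, 11 and 4 for the differences in F1 males, F1 females, F2 males and F2 females.

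Of 3352 alternative values for 185 named pairs of gene and comparison, 398 lost a call, 12 gained one and 2 changed sign. Both sign changes were uncalled values of Cyp4g1 in F0: 0 in males after further quantile normalization, and -0.012 in females without HSD-fed replicate 4 (-0.012 to 0.064 with 1 array left out).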
